A study of Mus musculus with 3 samples.

Results

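Proliferating T cells of the mouse duodenum were taken as the cell barcodes that held at least 2 UMIs (unique molecular identifiers, counts of single captured transcripts) of Mki67, at least 2 of Top2a, at least 1 of Cd3e and 0 of Cd79a. Mki67 encodes Ki-67, which coats mitotic chromosomes, Top2a encodes the topoisomerase that untangles replicated DNA, Cd3e encodes a chain of the T cell receptor complex, and Cd79a marks B cells. Barcodes had to hold at least 500 UMIs and 200 genes and at most 15% mitochondrial UMIs. Members were thus chosen by their measured counts of these 4 genes. The rule found 427 barcodes among 33284, called cycling T barcodes here. They are set against the 26620 other barcodes with Cd3e and without Cd79a, which are called other Cd3e barcodes.

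The samples were immune cells of C57B6/J mice, male per the series title, taken 30 days after alpha-synuclein preformed fibrils (PFF, aggregates made from recombinant mouse protein) or saline went into the wall of the duodenum. The tissue was digested in Accumax, one part was sorted for CD45 and the other enriched on CD11b beads, and both were pooled for 10x 3' v3 libraries. There were 3 labelled samples, PFF 1 and saline 1 of batch 1 and saline 2 of batch 2, and how many mice each holds is not given. The pooling of sorts means that shares of barcodes need not be shares in the tissue.

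Each saline file joins 4 wells, and 3 of these wells hold identical counts in both files, so they were counted once. This gave 4 units: PFF 1, the unshared well of saline 1, the unshared well of saline 2, and the shared saline wells pooled. The saline values below keep that order. The units held 12263, 5459, 4332 and 11230 barcodes past the filter, with medians of 9111, 3241, 10130 and 5850 UMIs. PFF 1 and the unshared well of saline 2 had 93 barcode strings in common past the filter, held by 0 of the PFF 1 members and 2 of the saline 2 members. Nothing says that the wells came from separate animals, so the p-values measure the spread between these units, which may be technical.

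Epithelial T cells of the small intestine are mostly CD8+ cells that carry either a gamma-delta or an alpha-beta receptor. Those with the CD8 alpha-alpha dimer include gamma-delta cells and unconventional alpha-beta cells, while CD8 alpha-beta cells are conventional T cells that entered the gut after activation. A cell enters S phase when D cyclins with Cdk4 or Cdk6, then cyclin E with Cdk2, release E2F factors from Rb proteins. E2F sites mark promoters of genes for DNA replication, and the cell cycle genes homology region (CHR), whose core reads TTTGAA or TTCGAA, marks promoters of genes for G2 and mitosis.

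Those 2 promoter classes are shown because the lists of S phase genes and of G2 and M phase genes separate on them. Promoters of the 300 bases around gene starts (250 before and 50 after, RefSeq, GRCm38.p6) were found for 40 of 46 genes of the G2 and M phase list and 31 of 38 of the S phase list. The CHR core, searched on both strands, lay in a promoter of 31 of the 40 G2 and M phase genes (77.5%) and 6 of the 31 S phase genes (19.4%), against 19.2% of all 32851 promoters. The E2F motifs TTTGGCGC and TTTCCCGC, also on both strands, lay in promoters of 0 of 40 G2 and M phase genes and 10 of 31 S phase genes (32.3%), against 1.56% of all promoters. A match of letters is a description and not a measured binding site. The 3 CHR promoters and 2 E2F promoters printed here belong to the listed genes with the highest fold change and a single promoter in the table, and capitals mark the motif as read on the printed strand.
Bub1: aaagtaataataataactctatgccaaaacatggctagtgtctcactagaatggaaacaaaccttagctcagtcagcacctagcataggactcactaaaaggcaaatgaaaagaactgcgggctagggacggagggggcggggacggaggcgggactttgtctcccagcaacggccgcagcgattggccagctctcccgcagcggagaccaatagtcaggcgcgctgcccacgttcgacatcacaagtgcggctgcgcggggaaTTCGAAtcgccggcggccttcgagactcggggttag
Hmmr: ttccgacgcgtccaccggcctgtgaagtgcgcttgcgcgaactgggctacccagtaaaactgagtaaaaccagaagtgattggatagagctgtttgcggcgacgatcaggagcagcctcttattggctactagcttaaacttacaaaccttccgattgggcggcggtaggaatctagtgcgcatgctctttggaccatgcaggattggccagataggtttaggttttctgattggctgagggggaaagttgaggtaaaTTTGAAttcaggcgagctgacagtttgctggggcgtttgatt
Cenpf: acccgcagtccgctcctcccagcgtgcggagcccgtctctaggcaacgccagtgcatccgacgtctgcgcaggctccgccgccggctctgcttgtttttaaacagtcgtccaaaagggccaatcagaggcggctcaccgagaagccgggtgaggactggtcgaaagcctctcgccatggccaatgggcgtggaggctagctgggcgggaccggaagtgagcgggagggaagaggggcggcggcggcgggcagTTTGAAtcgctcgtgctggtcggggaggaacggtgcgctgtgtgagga
Cdc6: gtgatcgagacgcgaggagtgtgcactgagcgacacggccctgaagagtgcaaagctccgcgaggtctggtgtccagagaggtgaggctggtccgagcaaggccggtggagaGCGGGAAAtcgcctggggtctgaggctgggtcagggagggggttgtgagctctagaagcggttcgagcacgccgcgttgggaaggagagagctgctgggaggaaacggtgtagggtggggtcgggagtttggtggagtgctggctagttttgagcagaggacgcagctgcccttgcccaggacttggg
Hells: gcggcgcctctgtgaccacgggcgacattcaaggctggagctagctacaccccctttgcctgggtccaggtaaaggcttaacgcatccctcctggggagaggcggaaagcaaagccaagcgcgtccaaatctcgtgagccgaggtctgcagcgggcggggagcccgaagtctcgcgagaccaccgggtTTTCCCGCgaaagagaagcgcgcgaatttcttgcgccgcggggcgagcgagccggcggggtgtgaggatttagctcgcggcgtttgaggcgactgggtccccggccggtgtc
Bub1 encodes a kinase of the spindle checkpoint, Hmmr a spindle protein, Cenpf a kinetochore protein, Cdc6 a licensing factor of replication origins and Hells a chromatin remodeller. The windows lie at chr2:127831810-127832109 (minus strand, Bub1), chr11:40733388-40733687 (minus, Hmmr), chr1:189688037-189688336 (minus, Cenpf), chr11:98907901-98908200 (plus, Cdc6) and chr19:38930740-38931039 (plus, Hells). Cenpf stood at 411 CPM in cycling barcodes of PFF 1 and 671, 622 and 399 CPM in those of the saline units, against 1.14 CPM in other Cd3e barcodes of PFF 1 and 1.31, 1.28 and 2.68 CPM in those of the saline units.

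The rule itself fixed the levels of Mki67 (median 15 UMIs, range 2 to 154), Top2a (19, 2 to 176) and Cd3e (17, 1 to 88). Genes that go with Mki67 and Top2a through the cycle had to be high as well, so the cell cycle lists are given without a test. The G2 and M phase list took a median of 96.3 UMIs per 10000 in PFF 1 cycling barcodes and 139, 74.7 and 118 in the saline units, against 5.93 in PFF 1 and 5.61, 6.32 and 5.88 in other Cd3e barcodes. For the S phase list the medians were 62.0 in PFF 1 and 72.9, 38.2 and 60.9 in the saline units, against 7.19 in PFF 1 and 7.68, 7.25 and 6.86. UMIs of both the replication genes (Mcm genes or Pcna) and the mitosis genes were held by 344 of the 427 members, 72 held only those of the replication genes, 8 only those of the mitosis genes and 3 neither.

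Members just inside the rule resembled the barcodes just outside it. The 18 members with exactly 2 UMIs of both genes had a median of 9.88 UMIs per 10000 from the G2 and M phase list, and 10.0 was the median of the 78 Cd3e barcodes with 1 Mki67 UMI and 2 or more of Top2a. It was 10.9 in 57 barcodes with 1 Top2a and 2 or more Mki67 UMIs, and 5.82 in 23210 with neither gene. A further 58 barcodes met every criterion but the absence of Cd79a, and 64 cycling barcodes held neither Cd3e nor Cd79a. Cycling barcodes were also deeper, with medians of 20478 UMIs in PFF 1 and 8403.5, 19534 and 12589.5 in the saline units, against 9248.5 in PFF 1 and 3224, 10370 and 5624 in other Cd3e barcodes. A rule that asks for 2 UMIs of each gene finds more members among deep barcodes.

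**Figure D1:**
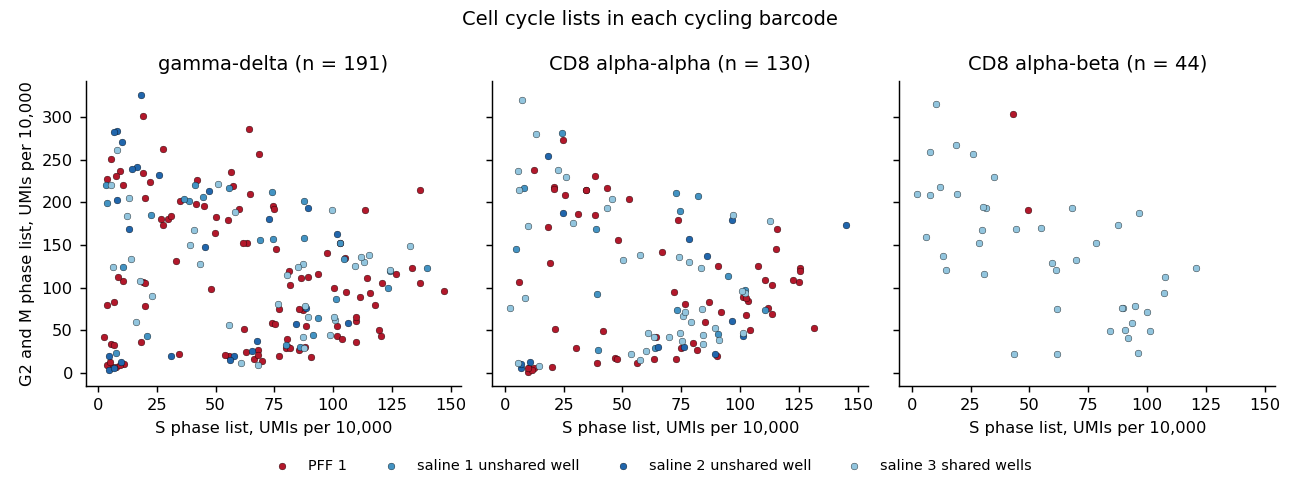
Each point is a cycling T barcode, with UMIs per 10000 from the S phase list on the horizontal axis and from the G2 and M phase list on the vertical axis, by class (panels) and unit (colours). The points run from high S and low G2 and M values to low S and high G2 and M values in each class, and in the gamma-delta and CD8 alpha-alpha panels a group of points sits near 0 on both axes.

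The T cell label was checked on Cd3d, Cd3g, Cd247, Trac, Trbc2 and Lck, none of which the rule used. All 6 were found in 339 members, at least 4 in 413, and 3 or fewer in 14. Of those 14, 7 came from PFF 1 and 2, 1 and 4 from the saline units. With 47816 to 134206 UMIs, 7 of them (6 of PFF 1, 1 of saline 2) held over 50 UMIs per 10000 of epithelial markers, and another, in the shared wells, held 1075 per 10000 of mast cell markers, of which 2023 UMIs were the mast cell protease gene Mcpt1. The data thus go against the T cell label for these 8, which were kept as the rule has them. Another member, of the unshared well of saline 2, had at least 4 T cell markers and 105 epithelial UMIs per 10000. It is not among the 14 and stays in the values given without them. All 14 together held 12.9% of the UMIs of PFF 1 cycling barcodes and 1.20%, 6.44% and 4.10% in the saline units. For some of the results that change without the 14, values without them are given as well.

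Over whole marker lists, the 18 epithelial markers summed to 1334 CPM (UMIs per 1000000 UMIs of the group) in PFF 1 cycling barcodes and 99.9, 1642 and 146 CPM in the saline units, against 677 CPM in PFF 1 and 502, 2353 and 665 CPM in other Cd3e barcodes. Of these markers 0, 10, 0 and 4 were at 0 in the cycling sums. Without the 14 members the epithelial sum of cycling barcodes was 121 CPM in PFF 1 and 101, 892 and 143 CPM in the saline units. The 10 mast and enteroendocrine markers summed to 117 CPM in PFF 1 and 197, 133 and 1829.6 CPM in the saline units of cycling barcodes, against 285 CPM in PFF 1 and 158, 651 and 165 CPM in other Cd3e barcodes, and without the 14 members to 132 CPM in PFF 1 and 199.8, 142 and 71.6 CPM. The 14 B and plasma cell markers summed to 199 CPM in PFF 1 and 246, 199 and 601 CPM in the saline units of cycling barcodes, against 266 CPM in PFF 1 and 308, 256 and 863 CPM. Ms4a1, a defining B cell marker, had a UMI in 0 of 426 members after thinning to 2000 UMIs, against 0.230% of other Cd3e barcodes. Of myeloid markers at that depth, C1qa was found in 0 of 426, against 0.385%, Lyz2 in 0.469%, against 0.708%, Csf1r in 0.235%, against 0.218%, and Cd68 in 1.64%, against 0.584%. The part of these other markers in the differences below was not tested beyond leaving barcodes out.

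Which T cells cycled was read from the classes after each barcode was thinned to 2000 UMIs, which left out 1 of the 427 members. A barcode with Trdc, the delta constant region, was classed gamma-delta, one with Cd8b1 CD8 alpha-beta, one with Cd4 CD4, one with Foxp3 regulatory, and one with Cd8a but none of these CD8 alpha-alpha. Pooled over units, 191 members were gamma-delta, 130 CD8 alpha-alpha, 44 CD8 alpha-beta, 6 CD4, 1 regulatory, 6 mixed and 48 without a class. Among 958 Cd79a barcodes without Cd3e, of median 6931.5 UMIs, which should lack these genes, 1.77% came out gamma-delta, 4.07% CD8 alpha-alpha and 0.313% CD8 alpha-beta. A missed Trdc transcript moves a gamma-delta cell to CD8 alpha-alpha, and the unthinned counts of cycling CD8 alpha-alpha barcodes still held 341 CPM of Trdc in PFF 1 and 132, 214 and 224 CPM in the saline units.

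Gamma-delta barcodes made up 55.0% of cycling T barcodes in PFF 1 (exact binomial 95% interval 47.6 to 62.3) and 55.3%, 61.9% and 23.6% in the saline units, against 51.9% in PFF 1 and 57.2%, 59.1% and 43.2% of other Cd3e barcodes. In the shared wells the interval of the cycling share (17.1 to 31.3) lay below that of the others (42.1 to 44.3), and in the other units the intervals overlapped. The mean difference was -3.86 percentage points (SD 10.7, 4 units, exact sign-flip permutation p = 0.875, two-sided), and 1.36 without the shared wells. CD8 alpha-alpha barcodes made up 32.3% of cycling barcodes in PFF 1 and 31.9%, 33.3% and 27.0% in the saline units, against 39.2% in PFF 1 and 36.0%, 35.0% and 37.5% of the others. They were lower among cycling barcodes in 4 of 4 units, by 5.80 points on average (difference -5.80, SD 3.79, with the exact sign-flip p at the smallest value that 4 units allow, which is above 0.05). Barcodes without a class made up more of the cycling barcodes in 3 of 4 units, by 3.66 points on average. Cd8a, which defines the CD8 alpha-alpha class, was found after thinning in 73.5% of cycling and 84.2% of other barcodes, pooled over units. Whether missed Cd8a transcripts lowered the CD8 alpha-alpha share was not tested. The shares depend on the thinning. With all UMIs, CD8 alpha-alpha barcodes made up 15.9% of cycling barcodes in PFF 1 and 27.1%, 19.0% and 14.2% in the saline units, against 26.8% in PFF 1 and 30.7%, 23.9% and 28.7% of the others, again lower in 4 of 4 units. Gamma-delta barcodes then made up 77.2% in PFF 1 (70.6 to 83.0) and 66.7%, 76.2% and 33.8% in the saline units, against 66.0% in PFF 1 (65.1 to 67.0) and 63.9%, 70.8% and 53.0% of the others. The intervals in PFF 1 then did not overlap, and the cycling share was higher in 3 of 4 units. These unthinned shares compare unequal depths, with medians of 20478 UMIs in cycling and 9248.5 UMIs in other barcodes of PFF 1. Pooled over units, Trdc was found with all UMIs in 65.6% of cycling and 64.3% of other barcodes. After thinning, Trdc was found in 46.0% of cycling and 51.6% of other barcodes. Whether depth accounts for the unthinned differences was not tested.

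Cycling CD8 alpha-beta barcodes came almost all from the shared saline wells. Their share of cycling barcodes was 1.06% in PFF 1 (2 of 189) and 0%, 0% and 28.4% (42 of 148) in the saline units, against 1.48% in PFF 1 and 1.30%, 0.548% and 8.63% of other Cd3e barcodes. The zeros in the unshared wells allow shares of up to 7.55% and 8.41% by the exact interval. The mean difference of 4.37 points (exact p = 1) rested on the shared wells and was -0.76 without them. Within the class, 42 of 753 CD8 alpha-beta barcodes of the shared wells cycled (5.58%, 4.05 to 7.46), against 2 of 147 in PFF 1 (1.36%, 0.165 to 4.83) and 0 of 59 and 0 of 17 in the unshared saline wells. By well the counts were 3 of 46, 1 of 44 and 38 of 663, so all 3 shared wells held some. These intervals cover counting error only. Of gamma-delta barcodes, 2.00% cycled in PFF 1 and 0.995%, 1.40% and 0.974% in the saline units, and of CD8 alpha-alpha barcodes 1.56% in PFF 1 and 0.912%, 1.27% and 1.28%. CD4 members numbered 3, 1, 0 and 2, too few to compare.

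**Figure D2:**
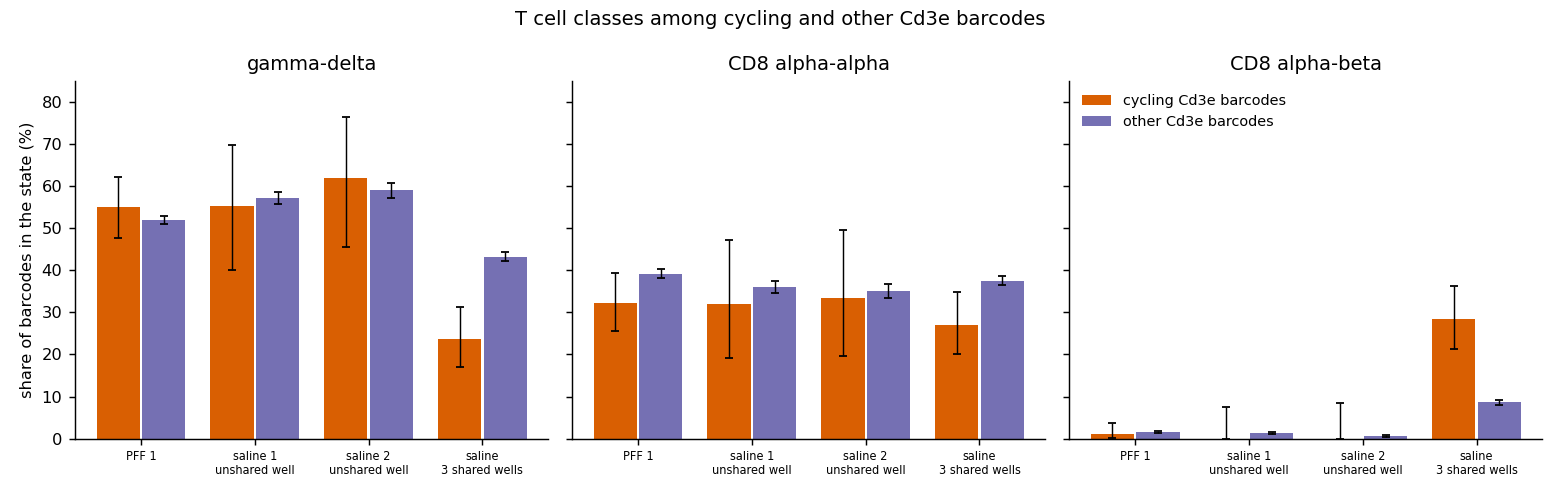
Share of gamma-delta, CD8 alpha-alpha and CD8 alpha-beta barcodes among cycling (orange) and other (purple) Cd3e barcodes in each unit, after thinning to 2000 UMIs, with exact binomial 95% intervals. The CD8 alpha-beta share reaches 28.4% of cycling barcodes in the shared saline wells and is at most 1.06% in the other units.

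Cycling and other CD8 alpha-beta barcodes of the shared wells are given as sums over 42 and 711 barcodes of 1 unit, with no test. Cd5 and Cd28, receptors of conventional T cells, stood at 101 and 106 CPM in the cycling sum, against 102 and 96.1 CPM in the other one. Itga4, an integrin chain of gut-homing T cells, stood at 1036 CPM, against 1202 CPM, and Gzmk, a granzyme, at 356 CPM, against 295 CPM. Bcl2, which blocks apoptosis, stood at 64.3 CPM, against 536 CPM. The killer receptor chain Klrd1 (50.4 CPM, against 285 CPM) and the adaptors Tyrobp (29.5, against 240) and Fcer1g (31.3, against 164) were low in the same barcodes. In gamma-delta barcodes of the shared wells Bcl2 stood at 855 CPM in the cycling sum, against 2525 CPM in the others. Cd5 and Cd28 had 0 UMIs in the cycling gamma-delta sum of every unit.

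The median S phase value was 57.3 UMIs per 10000 in cycling CD8 alpha-beta, 66.1 in CD8 alpha-alpha and 63.5 in gamma-delta barcodes, and the median G2 and M phase values were 145, 88.5 and 113, given without a test because units weigh differently in each class.

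Genes were compared between the states in sums of raw UMIs per unit with edgeR's quasi-likelihood test, with the unit as a block and Benjamini-Hochberg adjustment over 14635 genes. At an adjusted p under 0.05, 2435 genes were higher (16.6% of those tested) and 2353 lower (16.1%) in cycling barcodes. Counts of called genes in the lists below are to be read beside these percentages of all genes. Log2 values are for shares of UMIs. The SE over 4 units printed beside them is that of the edgeR fit, taken from its F statistic. It is not the spread of the 4 unit values. A cycling barcode held more UMIs, so a gene with a lower share need not have fewer transcripts: of the 2353 genes called lower, 1402 had more UMIs per barcode in the cycling state in all 4 units and 179 had fewer in all 4. For all genes tested the ratio of UMIs per barcode had a median of 2.11.

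**Figure D3:**
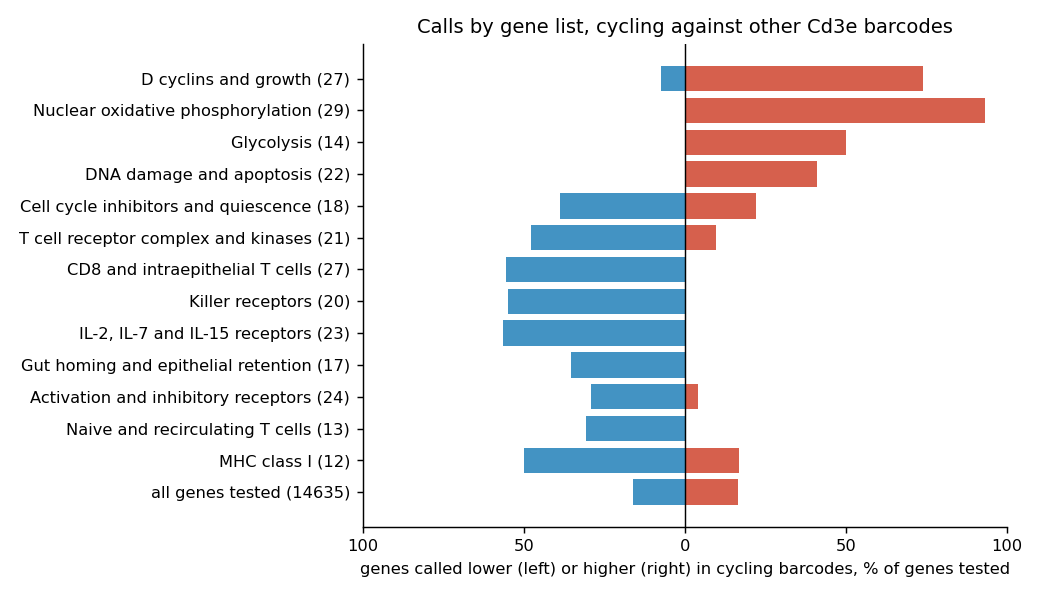
For each gene list, the percentage of tested genes called lower (blue, left) or higher (red, right) in cycling than in other Cd3e barcodes, with the number of genes tested in brackets. In the oxidative phosphorylation list 27 of 29 genes are called higher, while the killer receptor, cytokine receptor and intraepithelial lists are called lower or not at all.

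All 38 S phase and 46 G2 and M phase genes were higher in cycling barcodes, with median log2 values of 3.22 and 6.53, which the rule brings with it. Cdk1, the kinase of mitosis, stood at 203 CPM in cycling barcodes of PFF 1 and 225, 198 and 188 CPM in those of the saline units, against 2.10 CPM in other Cd3e barcodes of PFF 1 and 2.85, 1.94 and 1.86 CPM in those of the saline units. Rrm2, a subunit of ribonucleotide reductase, stood at 237 CPM in cycling barcodes of PFF 1 and 332, 191 and 218 CPM in those of the saline units, against 2.42 CPM in other Cd3e barcodes of PFF 1 and 2.68, 1.72 and 2.70 CPM in those of the saline units. Outside these lists the genes with the highest fold change were again genes of the cycle: the histone genes Hist1h3b (log2 10.42), Hist1h3c (log2 10.00), Hist1h2af (log2 9.95) and Hist1h1b (log2 8.64), the cohesin acetyltransferase Esco2 (log2 9.59), the DNA glycosylase Neil3 (log2 9.38), the kinesins Kif18b (log2 9.29) and Kif14 (log2 9.20), the kinase Pbk (log2 9.05), the spindle protein Aspm (log2 8.74) and the Max-binding factor Mxd3 (log2 8.73), with BC030867, Depdc1b, Ankle1 and Pimreg. Histone copies are nearly identical and their reads can be shared between them.

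Of the 27 tested genes of the D cyclin and growth list, 20 were higher and 2 lower, and the 2 were Ccnd2 and Ccnd3, the D cyclins that drive lymphocytes out of G1. Ccnd3 stood at 192 CPM in cycling barcodes of PFF 1 and 167, 172 and 176 CPM in those of the saline units, against 572 CPM in other Cd3e barcodes of PFF 1 and 504, 478 and 503 CPM in those of the saline units (log2 -1.49 ± 0.07, SE over 4 units, adjusted p = 2.77e-08). The groups did not overlap, and per barcode Ccnd3 was lower in the cycling state in all 4 units as well. Ccnd2 stood at 431 CPM in cycling barcodes of PFF 1 and 439, 645 and 334 CPM in those of the saline units, against 1067 CPM in other Cd3e barcodes of PFF 1 and 1247, 1251 and 851 CPM in those of the saline units (log2 -1.22 ± 0.08, SE over 4 units, adjusted p = 6.19e-07). Their partner Cdk4 stood at 68.7 CPM in cycling barcodes of PFF 1 and 79.0, 76.0 and 73.3 CPM in those of the saline units, against 21.8 CPM in other Cd3e barcodes of PFF 1 and 28.6, 28.1 and 24.1 CPM in those of the saline units (log2 1.61 ± 0.10, SE over 4 units, adjusted p = 3.15e-07), and Cdk2, the S phase kinase, was higher too (log2 2.06). Tfrc, the transferrin receptor, Slc7a5, an amino acid carrier, and Ran with Ranbp1, of nuclear transport, were higher by log2 1.92, 2.20, 1.89 and 1.88. For Cdk2, Cdk4 and these genes, the part that the rule brings with it was not tested. Myc did not pass (log2 0.33, adjusted p = 0.202).

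Among 18 inhibitors of the cycle and quiescence genes, 4 were higher and 7 lower. With members of at least 4 T cell markers, 5 were higher and 6 lower. Cdkn2c, which encodes the Cdk4 and Cdk6 inhibitor p18, stood at 89.9 CPM in cycling barcodes of PFF 1 and 116, 100.3 and 63.9 CPM in those of the saline units, against 9.96 CPM in other Cd3e barcodes of PFF 1 and 12.5, 12.9 and 10.7 CPM in those of the saline units (log2 3.02 ± 0.13, SE over 4 units, adjusted p = 5.57e-09). The related inhibitor gene Cdkn2d was higher as well (log2 1.64), with Ccng2 (log2 0.51) and Rb1 (log2 0.32). How much of these higher levels the rule on Mki67 and Top2a brings with it was not tested. Cdkn1b, which encodes p27, an inhibitor of Cdk2, stood at 73.4 CPM in cycling barcodes of PFF 1 and 46.4, 69.9 and 62.5 CPM in those of the saline units, against 108 CPM in other Cd3e barcodes of PFF 1 and 101, 102 and 88.9 CPM in those of the saline units (log2 -0.57 ± 0.11, SE over 4 units, adjusted p = 0.00237). The antiproliferative genes Btg1 (log2 -1.02) and Btg2 (log2 -1.07), the quiescence factors Foxo1 (log2 -0.27) and Foxp1 (log2 -0.55), Txnip (log2 -0.77) and Pik3ip1 (log2 -1.71) were lower in share. Cdkn1b, Foxo1, Foxp1 and Txnip still had more UMIs per barcode in the cycling state in 4 of 4 units.

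Genes of energy metabolism were higher in cycling barcodes. Of 29 nuclear genes of oxidative phosphorylation, 27 were called higher and none lower, with a median log2 value of 0.63, beside -0.05 for all genes. Cox5b, a subunit of cytochrome oxidase, stood at 413 CPM in cycling barcodes of PFF 1 and 481, 532 and 405 CPM in those of the saline units, against 183 CPM in other Cd3e barcodes of PFF 1 and 205, 258 and 195 CPM in those of the saline units (log2 1.17 ± 0.07, SE over 4 units, adjusted p = 2e-07). The complex I gene Ndufa4 (log2 1.16) and the ATP synthase gene Atp5b (log2 1.02) showed the same direction in 4 of 4 units. Among members with at least 4 T cell markers the count was again 27 of 29. Within the gamma-delta class 22 of 29 were called higher (16% of all genes there), and within the CD8 alpha-alpha class 22 of 29 (16%), in both with none lower. Of 13 mitochondrially encoded genes 10 were higher, and of 81 cytosolic ribosomal protein genes 47 were higher and 4 lower. The glycolysis list had 7 of 14 higher and none lower, among them Tpi1 (log2 1.25), Gapdh (log2 1.22), Pgk1 (log2 1.10) and Ldha (log2 0.92), though 1 or 2 members were called lower when each class was fitted alone.

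The list of DNA damage and apoptosis genes had 9 of 22 higher and none lower. Those highest were the repair and checkpoint genes Chek1 (log2 4.62), Brca1 (log2 4.21), Bard1 (log2 3.85) and H2afx (log2 3.82), which are also genes of S phase. Bax, of the mitochondrial route to apoptosis (log2 0.55), was higher by less.

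**Figure D4:**
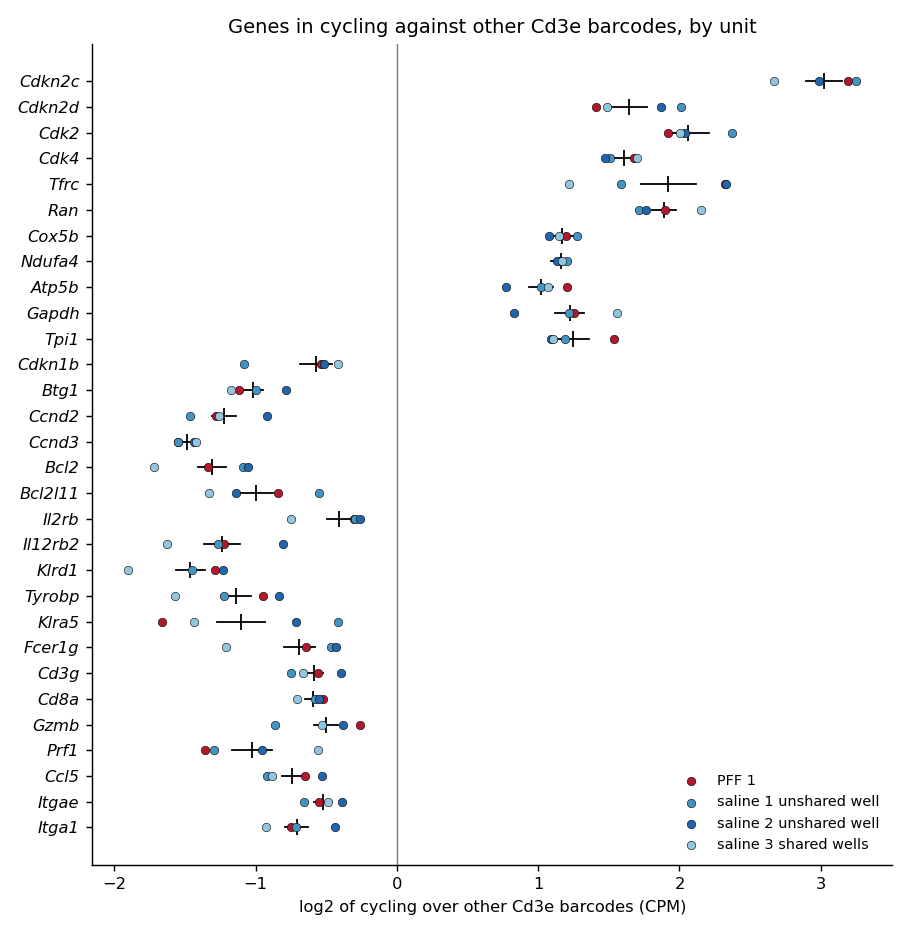
Log2 of cycling over other Cd3e barcodes in each of the 4 units (coloured points) for 30 genes, with the edgeR estimate (tick) and its standard error (line). All units lie on the same side of 0 for every gene shown, and Klrd1, Fcer1g and Il2rb are lowest in the shared saline wells.

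Survival and cytokine genes were lower in share. Of 23 tested genes of the IL-2, IL-7 and IL-15 receptor list, which includes their signalling and survival partners, 13 were lower and none higher. Bcl2, a target of IL-15 signalling that keeps intraepithelial T cells alive, stood at 795 CPM in cycling barcodes of PFF 1 and 880.2, 879.8 and 638 CPM in those of the saline units, against 2043 CPM in other Cd3e barcodes of PFF 1 and 1935, 1866 and 2244 CPM in those of the saline units (log2 -1.31 ± 0.10, SE over 4 units, adjusted p = 1.5e-06). The groups did not overlap, and per barcode Bcl2 was lower in 3 of 4 units. The direction was the same within the gamma-delta class (log2 -1.21) and within the CD8 alpha-alpha class (-1.09). Its antagonist Bcl2l11, which encodes Bim, was lower as well (log2 -0.99), as were Mcl1 (log2 -0.36), the IL-12 receptor gene Il12rb2 (log2 -1.24) and the IL-7 receptor gene Il7r (log2 -2.01). Il2rb and Il2rg, the chains shared by the IL-2 and IL-15 receptors, were lower by log2 -0.41 and -0.43, but Il2rb did not pass within the gamma-delta class (adjusted p = 0.0624) or the CD8 alpha-alpha class (0.109), and Il2rg not within the CD8 alpha-alpha class (0.302).

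Receptors shared with natural killer cells were lower in share. Of 20 tested, 11 were lower and none higher (median log2 -1.03, or -0.95 with the 2 genes at 0 in cycling barcodes set at a floor of 3 counts). Klrd1, which encodes CD94, stood at 417 CPM in cycling barcodes of PFF 1 and 444, 456 and 210.1 CPM in those of the saline units, against 1035 CPM in other Cd3e barcodes of PFF 1 and 1251, 1095 and 836 CPM in those of the saline units (log2 -1.46 ± 0.10, SE over 4 units, adjusted p = 7.12e-07), and per barcode it was lower in all 4 units. Tyrobp, which encodes the signalling adaptor DAP12, stood at 546 CPM in cycling barcodes of PFF 1 and 437, 813 and 338 CPM in those of the saline units, against 1075 CPM in other Cd3e barcodes of PFF 1 and 1054, 1484 and 1072 CPM in those of the saline units (log2 -1.14 ± 0.11, SE over 4 units, adjusted p = 9.09e-06). Klra5, of the Ly49 family, whose members are alike and can share reads, was at 87.2 CPM in cycling barcodes of PFF 1 and 244, 205 and 164 CPM in those of the saline units, against 281 CPM in other Cd3e barcodes of PFF 1 and 336, 345 and 474 CPM in those of the saline units (log2 -1.10 ± 0.17, SE over 4 units, adjusted p = 0.000425). The adaptor gene Hcst (log2 -0.72) and Klrb1c (log2 -1.37) were lower in share too. Per barcode, 3 of the 11 had fewer UMIs in the cycling state in all 4 units and 1 had more in all 4. Their ratio of UMIs per barcode had a median of 1.06. Tyrobp had more UMIs per barcode in the cycling state in 3 of 4 units, and Hcst in 4 of 4. In the gamma-delta class alone 7 of 16 tested were lower (15% of all genes), and in the CD8 alpha-alpha class 10 of 15 (13.6%). Klre1 (log2 -0.95) did not pass within the gamma-delta class (adjusted p = 0.535).

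Effector and residence genes of CD8 and intraepithelial T cells fell in share by less, with 15 of 27 called lower and none higher. Ccl5, a chemokine, stood at 7919.8 CPM in cycling barcodes of PFF 1 and 6577, 9619 and 6238 CPM in those of the saline units, against 12658 CPM in other Cd3e barcodes of PFF 1 and 12800.5, 14207 and 12299.5 CPM in those of the saline units (log2 -0.74 ± 0.07, SE over 4 units, adjusted p = 5.97e-06). Gzmb, a granzyme, stood at 2176 CPM in cycling barcodes of PFF 1 and 1602, 3036 and 1496 CPM in those of the saline units, against 2655 CPM in other Cd3e barcodes of PFF 1 and 3003, 4056 and 2298 CPM in those of the saline units (log2 -0.50 ± 0.08, SE over 4 units, adjusted p = 0.000797), and Gzma was lower by log2 -0.27. Perforin, encoded by Prf1, was at 31.0 CPM in cycling barcodes of PFF 1 and 30.2, 43.6 and 33.8 CPM in those of the saline units, against 81.1 CPM in other Cd3e barcodes of PFF 1 and 76.5, 86.4 and 53.1 CPM in those of the saline units (log2 -1.03 ± 0.14, SE over 4 units, adjusted p = 0.000212). Fasl (log2 -0.98), Cd8a (log2 -0.59), Runx3 (log2 -0.38) and Itgae, which encodes the integrin that binds E-cadherin (log2 -0.52), were lower as well. Per barcode, 14 of the 15 had more UMIs in the cycling state in all 4 units, and Gzma did not pass within the gamma-delta class (adjusted p = 0.144) or the CD8 alpha-alpha class (0.429). Of 17 tested genes of gut homing and epithelial retention 6 were lower and none higher, among them Cxcr6 (log2 -0.89), Itga1 (log2 -0.71), Cd101 (log2 -0.84) and Gpr55 (log2 -0.78).

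T cell receptor genes divided. Of 21 tested genes of the receptor complex and its kinases 10 were lower, including Cd3g (log2 -0.59), Cd3d (log2 -0.35), Fcer1g, which can stand in for the CD247 chain (log2 -0.69), Fyn (log2 -0.51), Lck (log2 -0.35) and Zap70 (log2 -0.32). Cd5 and Cd28 were higher, and their levels rested mostly on the shared wells. In the unshared well of saline 2, with 0 UMIs of both in cycling barcodes, the unit log2 values were -4.21 and -3.14. These 2 values depend on the prior count. Cd5 stood at 7.59 CPM in cycling barcodes of PFF 1 and 9.29, 0 and 67.2 CPM in those of the saline units, against 5.11 CPM in other Cd3e barcodes of PFF 1 and 2.11, 1.28 and 19.4 CPM in those of the saline units (log2 1.24 ± 0.40, SE over 4 units, adjusted p = 0.0335), and Cd28 at 6.02 CPM in cycling barcodes of PFF 1 and 4.64, 0 and 51.2 CPM in those of the saline units, against 3.71 CPM in other Cd3e barcodes of PFF 1 and 1.54, 0.573 and 16.8 CPM in those of the saline units (log2 1.18 ± 0.38, SE over 4 units, adjusted p = 0.0338). In the CD8 alpha-alpha class Cd5 was higher too (log2 1.91, adjusted p = 0.00172), while Cd28 did not pass there (log2 1.54, adjusted p = 0.0631). In the gamma-delta class, whose cycling barcodes had 0 UMIs of both, neither was tested. Of 11 tested gamma-delta genes 3 were lower, the gamma constant regions Tcrg-C4 (log2 -0.56), Tcrg-C1 (log2 -0.36) and Tcrg-C2 (log2 -0.33). Of these, Tcrg-C1 and Tcrg-C2 are near copies of each other. Within the gamma-delta class itself only 1 gene of the list passed, Tcrg-C4 (adjusted p = 0.0185).

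Activation and inhibitory receptors had 7 of 24 lower, among them Lag3 (log2 -1.07), Tigit (log2 -1.21), Entpd1, the ectonucleotidase CD39 (log2 -0.97), and Cd200r1 (log2 -0.88), and 1 higher, the transcription factor Tox2 (log2 2.25). Naive T cell genes had 4 of 13 lower and none higher, among them Il7r, Nsg2 (log2 -1.81) and Satb1 (log2 -1.47). CD4 helper genes had 3 of 14 lower and none higher, Gata3 (log2 -0.70), Bcl6 (log2 -1.06) and Tnfsf8 (log2 -0.81). The regulatory T cell list had 1 of 11 higher, Capg, an actin-capping protein (log2 1.58), and 1 lower, Tnfrsf18 (log2 -0.34). Tnfrsf18 lost its call among members with at least 4 T cell markers, where 0 of 10 genes of that list were lower. In the list of T cell precursors 1 of 11 was higher, Hes1, a Notch target, and 1 lower, Tcf12 (log2 -0.45). Hes1 (log2 2.45) did not pass among members with at least 4 T cell markers (edgeR adjusted p = 0.425). Among those members 4 of 11 precursor genes were lower and 1 higher. Of the activation and inhibitory receptors, 8 of 24 were then lower and 3 higher. Innate lymphoid genes had 4 of 9 lower and none higher. Over all members, the CD4 helper, regulatory and precursor counts lie near or below the shares of all genes called (16.6% higher, 16.1% lower).

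MHC class I genes had 6 of 12 lower, such as H2-D1 (log2 -0.38) and B2m (log2 -0.22), and 2 higher, the peptide transporter Tap1 (log2 0.57) and the immunoproteasome subunit Psmb9 (log2 0.66). Immediate early and dissociation genes had 2 of 15 higher, including the chaperone Hsp90aa1 (log2 1.43), and 2 lower, including Junb (log2 -0.62). The immediate early counts lie below the shares of all genes called (16.6% higher, 16.1% lower).

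Among the 15 called genes with the lowest fold change, 11 are known products of other cells. Hba-a1, an alpha globin, and Dclk1, a tuft cell gene, had 0 UMIs in cycling barcodes and were at least 71.5-fold and 39.6-fold lower, against a floor of 3 counts over the 4 units. The unshared well of saline 2 held 4105 of the Hba-a1 and 2775 of the Dclk1 UMIs of other Cd3e barcodes, and without it the bounds were 20.4-fold and 4.50-fold. Without PFF 1 the Hba-a1 bound was 45.7-fold. The goblet cell genes Fcgbp (log2 -4.93), Tff3 (log2 -4.61) and Spink4 (log2 -4.58), the enteroendocrine and goblet cell gene Reg4 (log2 -6.55), and Gsta1, Apoc3, Apoc2, Spink1 and S100g, which enterocytes express, belong to the same group. Reg4 did not pass among members with at least 4 T cell markers (log2 -0.97, adjusted p = 0.651), and Fcgbp (0.477), Tff3 (0.232) and Gsta1 (0.752) did not pass within the gamma-delta class. Gsta1 did not pass within the CD8 alpha-alpha class either (0.47). Of the epithelial marker list 2 of 18 were higher, Olfm4 (log2 7.53) and Krt19 (log2 2.04), with 447 of 451 and 707 of 709 of their PFF 1 UMIs in the 7 members with few T cell markers. Without such members Krt19 did not pass (log2 1.08, edgeR adjusted p = 0.128). Olfm4 still passed (log2 2.82, edgeR adjusted p = 0.04), but on few counts. Its UMIs in the saline units were 0, 3 and 0, with the 3 in 1 barcode. In the same list 5 were lower, including Muc2 (log2 -5.14) and Apoa4 (log2 -3.42). Other Cd3e barcodes held 1.01 Muc2 UMIs each in PFF 1 and 0.0020, 1.37 and 0.0037 in the saline units. B and plasma cell, myeloid, and mast and enteroendocrine markers each had 4 lower (of 12, 15 and 8 tested) and none higher. Among members with at least 4 T cell markers, 1 epithelial marker was higher and 9 of 18 lower, and 6 of 7 mast and enteroendocrine markers were lower.

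Also among those 15 genes, all of which were drawn from outside the marker lists of other cells, were Kdm5b, Tcp11l2 and Glis3. Kdm5b, a histone demethylase, stood at 17.6 CPM in cycling barcodes of PFF 1 and 11.6, 15.2 and 21.6 CPM in those of the saline units, against 102 CPM in other Cd3e barcodes of PFF 1 and 98.8, 93.1 and 106 CPM in those of the saline units (log2 -2.47 ± 0.13, SE over 4 units, adjusted p = 5.57e-08). Tcp11l2 (log2 -2.61) and Glis3, a zinc finger factor (log2 -2.44), were also lower, and for these 3 genes the groups did not overlap and UMIs per barcode were lower in all 4 units. All 3 passed within the gamma-delta and within the CD8 alpha-alpha class.

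Whether PFF changed the cycling T cells can be read only against the spread of the saline units, since there was 1 PFF library. Cycling barcodes made up 1.86% of Cd3e barcodes in PFF 1 (189 of 10159, exact binomial 95% interval 1.61 to 2.14), and 0.954% (0.704 to 1.26), 1.29% (0.929 to 1.74) and 1.72% (1.46 to 2.02) in the saline units. PFF 1 was the highest, 0.539 percentage points above the saline mean of 1.32% (SD 0.386, n = 3). Its interval overlapped those of the unshared well of saline 2 and of the shared wells but not that of the unshared well of saline 1. Within batch 1 the difference to the unshared well of saline 1 was 0.907 points. That well is only part of saline 1, which also holds the shared wells, and it had the lowest median of UMIs. An exact permutation over 1 PFF and 3 saline units cannot give a p below 0.25. After thinning to 2000 UMIs the shares were 0.733% in PFF 1 and 0.515%, 0.538% and 0.592% in the saline units, with overlapping intervals. After thinning to 4000 UMIs the difference was -0.32 points, with 3599 barcodes of the unshared well of saline 1 left out as too shallow.

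**Figure D5:**
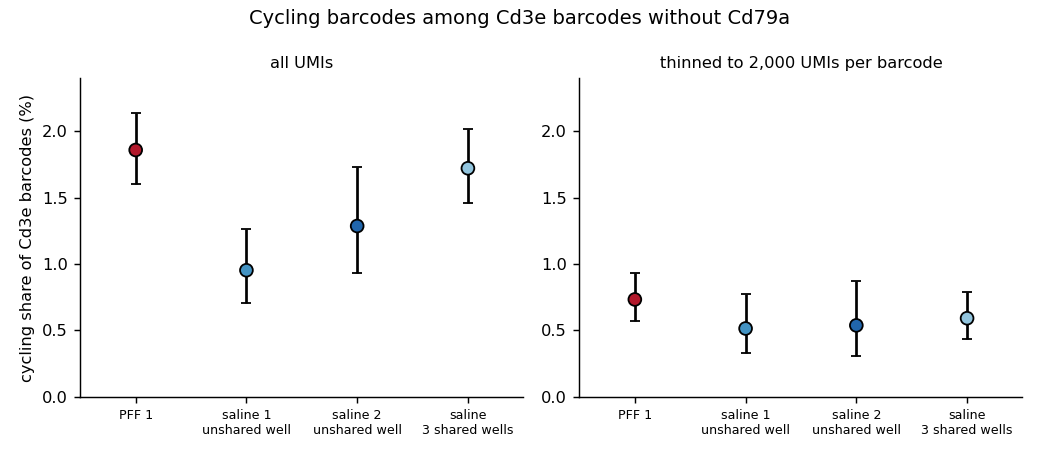
Cycling share of Cd3e barcodes without Cd79a in each unit with all UMIs (left) and after thinning each barcode to 2000 UMIs (right), with exact binomial 95% intervals. PFF 1 is highest in both panels, at 1.86% and 0.733%, and its interval lies above that of the unshared well of saline 1 in the left panel and overlaps all saline intervals in the right one.

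In the sums of cycling barcodes edgeR tested 10952 genes between PFF 1 and the 3 saline units and called 1 higher in PFF (0.00913%) and 0 lower, with 180 at an unadjusted p under 0.05. DESeq2 also called 1. The gene was Esrrg, an orphan nuclear receptor, with 388 UMIs in PFF 1 and 0, 1 and 1 in the saline units (log2 7.04 ± 0.51, edgeR adjusted p = 0.0377, higher than all 3 saline units). Against the unshared well of saline 1, of the same batch, the log2 value was 6.43. Of the 388 UMIs, 387 lay in the 7 PFF members with 3 or fewer T cell markers. With all 14 such members left out edgeR called 0 genes of 10411 in either direction, with 265 at an unadjusted p under 0.05. The next genes by fold change, Olfm4, an intestinal stem cell marker (451 UMIs in PFF 1 and 0, 3 and 0 in the saline units), Kcnq1, Sema5a and Ptprg, did not pass, and 447 of 451, 124 of 126, 197 of 197 and 146 of 147 of their PFF UMIs lay in the same 7 members. Without the unshared well of saline 2, 131 genes were called higher and 39 lower, and without that of saline 1, 0.

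Toward the low end Itga4 was at 59.8 CPM in PFF 1 and 105, 62.8 and 520 CPM in the saline units (log2 -2.06 ± 1.17), and Gzmk at 22.8 CPM in PFF 1 and 27.9, 32.4 and 147 CPM (log2 -1.79 ± 0.93). Both were high in the shared wells, where the CD8 alpha-beta members were, and neither passed (edgeR adjusted p = 1.00 for both). Gm48099, Tmem163 and B930036N10Rik were the other genes named there, and none passed. Within the S phase list PFF 1 lay above all 3 saline units for 18 of 38 genes (24.1% of all genes did) and below for 1. In the G2 and M phase list it lay below all 3 for 21 of 46 (13.5% of all genes) and above for 3, and 0 genes of either list were called. The killer receptor list (15 tested) had 2 members above and 3 below, and the oxidative phosphorylation list (29 tested) 3 above and 2 below, beside the 24.1% and 13.5% of all genes.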

How the data were processed

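Single-cell RNA was counted as UMIs per gene and barcode. The deposited matrices hold raw UMI counts made with Cell Ranger 7.0.0, per the file headers, on mm10, per the submitters' processing notes. The barcode filter and the member rule are those given above. The 3 wells identical in both saline files were pooled as 1 unit, giving 4 units. The members and gene lists were chosen with earlier results of these data known. Raw counts were summed per unit and state and tested with edgeR 4.0.16 (quasi-likelihood, TMM, filterByExpr) in R 4.3.3, with the unit as a block for cycling against other Cd3e barcodes, called at an adjusted p under 0.05. The cycling and other sums of a unit come from the same library, which is where the pairing comes from. DESeq2 1.42.0 was an alternative. Classes used counts thinned to 2000 UMIs. Doublets were not removed in the main results: the highest Scrublet scores took 8 of 427 members (1.87%), and removing them was an alternative. Exact binomial intervals and floors cover counting error only.

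Genes were named from the lists and, outside the lists of the cycle and of other cells, as the 15 highest and 15 lowest fold changes among genes called with 1 direction in 4 units and at least 20 CPM. For PFF against saline they were the 5 highest and 5 lowest with PFF 1 outside all saline units. The edgeR script was tested on simulated counts. For cycling against other it recovered 61.9% of 2-fold and 83.5% of 4-fold changes, with 18 false calls. For PFF against saline it recovered 1.06% and 46%, with 21 false calls. Few calls between PFF and saline thus do not show that little changed. Some genes that meet these rules are not reported here.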

Additional observations from a re-analysis of the deposited data

Results flagged for a closer look

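Over the 4 units 154 values were examined by Dixon's limit, and chance flags about 1 in 20. For named genes and the gamma-delta, CD8 alpha-alpha and CD8 alpha-beta classes, 7 had 1 unit far from the other units. The regulatory share among cycling barcodes (0.676% in the shared wells, from 1 barcode) and its difference to other barcodes also passed the limit. The shared saline wells stood apart in the CD8 alpha-beta share among cycling barcodes (28.4%), in the difference between cycling and other barcodes of that share (19.7 percentage points), and in the log2 value of cycling over other barcodes for Il2rb (-0.75). The unshared well of saline 1 stood apart for Hist1h2af (log2 8.11) and for Pik3ip1 (log2 -7.78), which had 0 UMIs in its cycling barcodes, so that this value depends on the prior count. The unshared well of saline 2 stood apart for Pimreg (log2 8.72) and Entpd1 (log2 -0.56).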

How the results depend on the processing

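The difference in cycling share between PFF 1 and saline was 0.139 points after thinning to 1000 UMIs and -0.32 points after thinning to 4000, and 0.356 to 0.740 points without single saline units. Genes called higher in PFF numbered 0 with at most 10% mitochondrial UMIs, with Cd3e of at least 2, or with at least 4 T cell markers (the last chosen after seeing the data), 2 without the shared wells or with each well as a library, 9 with no low count filter, and 0 to 131 without single units, with 0 to 39 called lower. Without single units, cycling barcodes had 1917 to 2228 genes called higher and 1729 to 2111 lower, and the class differences ran from -7.18 to -4.25 points for CD8 alpha-alpha, -6.19 to 1.36 for gamma-delta and -0.76 to 6.26 for CD8 alpha-beta. Without the replicate block 2094 genes were higher and 1700 lower. Krt19 reversed to log2 -1.08 without barcodes holding 2 or more markers of other cells and to -0.18 within the gamma-delta class, and the cause was not tested. Of the other values of named genes under the alternatives, 3028 kept direction and call and 153 lost the call. The median log2 of all genes was -0.05, and 0.33 with DESeq2, so small changes are relative to that shift. No paired analysis was possible because PFF and saline share only replicate number 1. Depth limits what the CD8 alpha-beta and CD4 counts and the PFF comparison can show.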
